A study of Mus musculus with 11 samples.

Results

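The comparison described here is that of the B6-13D2 cell line, in which chromosome 13 carries a DBA/2J interval on a C57BL/6J background, with the C57BL/6J line itself (B6). The assay was ATAC-seq: the transposase Tn5 inserts sequencing adapters wherever DNA is accessible. The members were chosen by line: the 2 B6-13D2 and the 3 B6 libraries, of 11 libraries from 4 lines of mouse embryonic stem cells, and every region of the deposited table. Of 248336 regions in the table, 246840 had enough counts to be tested, 11873 on chromosome 13 and 234967 on the other chromosomes.

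The strain of the B6 line is C57BL/6J. The strain of the B6-13D2 line is written B6.D2-(rs30079041-rs51756099)/Bakr, a congenic named by the markers that bound its DBA/2J segment. The positions of these markers were not used here, so the edges of the interval are described from the data. A further pair of lines, the DBA/2J line (D2) and its reciprocal congenic D2.B6-(rs29224292-rs13469455)/Bakr (D2-13B6), with 3 libraries each, was used only where stated. All lines were grown in serum medium with LIF, the MEK inhibitor PD0325901 and the GSK3 inhibitor CHIR99021. Each genotype was 1 cell line and its libraries are technical replicates, so the p-values measure the spread between libraries of a line. A difference between these lines may be due to the interval or to anything else in which the 2 lines differ, and the 2 cannot be told apart. Total counts were 27293140, 15198496 and 21341564 in the B6 libraries and 20022534 and 18807653 in the B6-13D2 libraries. Promoters of pluripotency genes were open in both lines: those of 18 markers such as Pou5f1, Nanog and Sox2 had a median of 22.0 CPM in B6 (normalised CPM are counts divided by the TMM-scaled library total).

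KRAB zinc finger proteins form a large family of DNA-binding repressors that has expanded together with transposons. They bind particular repeat sequences and recruit TRIM28, which brings in the methyltransferase SETDB1 and leads to H3K9 trimethylation and compact chromatin. Mouse chromosome 13 carries a cluster of such genes, rich in recent duplications, and strains differ in its content. LINE-1 elements, the autonomous retrotransposons still active in mice, start with a promoter made of tandem monomers and end with a long reading frame for the endonuclease and reverse transcriptase.

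The sequences that carry the main result off chromosome 13 are 4 words of 24 bases (24-mers) found again and again in the regions that were lower in B6-13D2. Each is given 5′ to 3′, in capitals throughout, and was counted on both strands of the GRCm38 assembly.
first 24-mer: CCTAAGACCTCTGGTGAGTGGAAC
second 24-mer: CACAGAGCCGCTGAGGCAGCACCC
the third 24-mer: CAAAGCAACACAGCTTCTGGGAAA
the fourth 24-mer: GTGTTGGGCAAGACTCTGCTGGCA
The next line shows the first in place, in capitals, within chr19:39249072-39249271 (minus strand), inside an intron of the cytochrome P450 pseudogene Cyp2c53-ps, the second most significant of the lower regions off chromosome 13.
Cyp2c53-ps: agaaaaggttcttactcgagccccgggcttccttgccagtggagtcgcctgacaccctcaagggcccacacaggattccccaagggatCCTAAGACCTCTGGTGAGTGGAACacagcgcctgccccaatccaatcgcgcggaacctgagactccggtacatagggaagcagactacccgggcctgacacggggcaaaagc
A different word recurred in the regions that were higher in B6-13D2, and it is called the higher 24-mer below.
higher 24-mer: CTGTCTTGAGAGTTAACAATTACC
For comparison, the next lines give the middle of 3 leading regions that hold none of these 4 words or the higher one, all on the plus strand: the gain with the smallest p on chromosome 13, at chr13:65991127-65991326, the loss with the smallest p there, in an intron of Golm1 at chr13:59656769-59656968, and the loss with the smallest p on the other chromosomes, in an intron of Bicd1 at chr6:149471562-149471761.
chromosome 13 gain: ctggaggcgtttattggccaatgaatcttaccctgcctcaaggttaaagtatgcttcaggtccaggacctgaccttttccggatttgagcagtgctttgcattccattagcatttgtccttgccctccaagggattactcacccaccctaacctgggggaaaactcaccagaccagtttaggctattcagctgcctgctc
Golm1 intron loss: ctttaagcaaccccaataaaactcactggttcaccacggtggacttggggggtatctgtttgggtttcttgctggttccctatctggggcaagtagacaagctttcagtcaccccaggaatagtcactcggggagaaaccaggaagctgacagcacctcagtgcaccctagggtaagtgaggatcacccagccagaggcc
Bicd1 intron loss: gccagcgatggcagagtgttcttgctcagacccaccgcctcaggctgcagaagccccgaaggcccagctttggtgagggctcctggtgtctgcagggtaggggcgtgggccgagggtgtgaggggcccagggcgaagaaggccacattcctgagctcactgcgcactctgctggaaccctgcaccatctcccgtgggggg

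Accessibility differed at 1169 of the 246840 regions tested, 0.474% of them, by edgeR's quasi-likelihood test at an adjusted p under 0.05. More regions were lower in B6-13D2 (827, 0.335%) than higher (342, 0.139%). On chromosome 13, 248 of 11873 regions differed, or 2.09%, with 146 higher (1.23%) and 102 lower (0.859%). On the other chromosomes 921 of 234967 regions differed, or 0.392%, with 196 higher (0.0834%) and 725 lower (0.309%). So chromosome 13 had the higher rate and mostly gains, and the rest of the genome had most of the calls and mostly losses. In all 1169 regions called, the values of the 2 lines did not overlap between libraries, which was so for 26.1% of all regions tested. The balance off chromosome 13 depends on the fit: with the spread estimated from the 5 libraries alone, 994 regions were higher and 1523 lower.

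The calls on chromosome 13 were concentrated in a short stretch. Of the 1170 regions tested between 60 and 70 Mb, 193 differed, or 16.5%, of which 134 were higher (11.5%) and 59 lower (5.04%). The 2 bins from 65 to 67 Mb were the densest. From 65 to 66 Mb 70 of 150 regions differed, 65 of them higher and 5 lower, and the median log2 fold change of all 150 was 1.15. From 66 to 67 Mb 77 of 173 regions differed, 55 higher and 22 lower, with a median of 0.62. Gains therefore filled the first of these bins and were mixed with losses in the second. From 67 to 69 Mb losses outnumbered gains: 3 higher and 8 lower from 67 to 68 Mb, and 4 higher and 7 lower from 68 to 69 Mb. Outside the 60 to 70 Mb window 55 of 10703 regions of the chromosome differed, or 0.514%, with 12 higher (0.112%) and 43 lower (0.402%), against 0.392% of regions called on the other chromosomes.

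**Figure D1:**
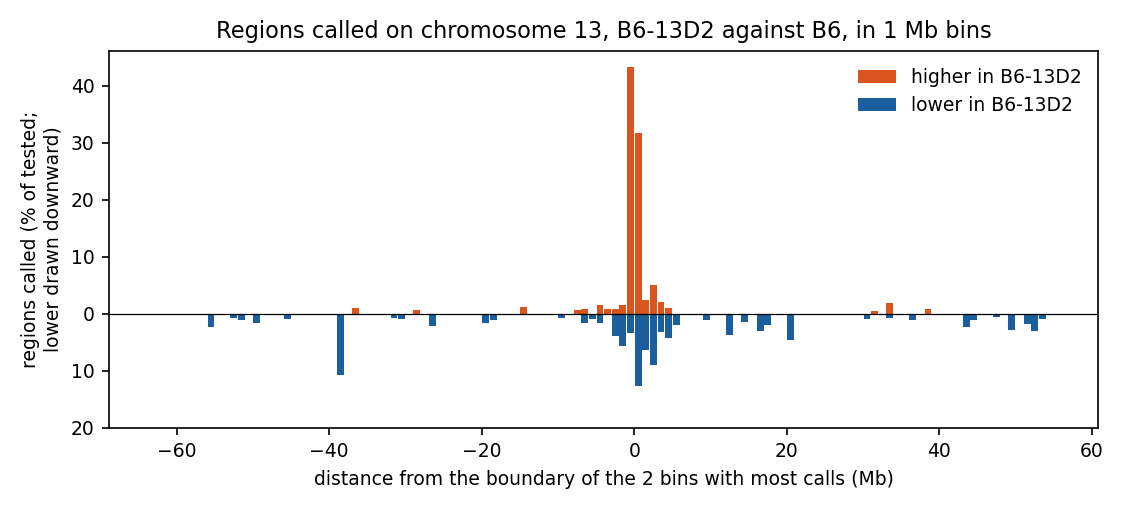
Share of tested regions called higher (orange, upward) or lower (blue, downward) in B6-13D2 than in B6, in 1 Mb bins along chromosome 13, against the distance in Mb from the boundary of the 2 bins with most calls, which lies at 66 Mb. The 2 tallest orange bars are the bins on either side of that boundary, lower orange bars stand in other bins, and the tallest blue bar left of it is a bin of 28 tested regions of which 3 were lower.

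The losses in the window were deeper than the gains. The median log2 fold change was 1.95 among the 134 higher regions. Among the 59 lower regions it was -3.14, or -2.42 when the 22 regions with at most 3 counts in both B6-13D2 libraries are set to the bound that 3 counts allow. Of the lower regions, 11 had no count at all in either B6-13D2 library, whereas 2 of the higher regions had at most 3 counts in every B6 library. Within the interval the DNA of B6-13D2 is of DBA/2J origin, while the reference is that of C57BL/6J, and which regions of the window lie within it was not established here. A loss of accessibility, a deletion, and reads that fail to align cannot be told apart for these regions, nor can a gain of accessibility and a gain of copies. Duplicated sequence is common in this stretch: the central 31 bases of a region occurred more than once in the genome for 66.9% of the regions tested from 65 to 67 Mb, against 10.5% off chromosome 13. In the 60 to 70 Mb window this held for 34.4% of the regions tested, for 96 of the 134 higher regions and for 39 of the 59 lower ones.

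The gain with the smallest p lay at chr13:65990568-65991884, an intergenic region near the predicted gene Gm48220 whose middle is printed above. It had 1.397, 1.59 and 1.36 CPM in B6 and 64.4 and 73.9 CPM in B6-13D2. Both B6-13D2 libraries were far above every B6 library, with a log2 fold change of 5.59 (SE 0.23, edgeR adjusted p = 4.16e-29). The region near Gm48222, at chr13:66031232-66032165, went from 0.432, 0.122 and 0.394 CPM to 6.64 and 8.87 CPM. The promoter region of the non-coding gene Gm26754, at chr13:66243713-66244487, had 1.63, 1.403 and 1.88 CPM in B6 and 13.4 and 16.04 CPM in B6-13D2. The remaining 3 of the 6 leading gains, near Gm49532, Gm48186 and Gm48165, had log2 fold changes of 3.398, 3.02 and 3.54. All 6 lie between 65 and 67 Mb, none within 1000 bp of the start of a protein-coding gene. Regions were named only where the libraries of the 2 lines did not overlap, a condition that all called regions met.

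The loss with the smallest p on the chromosome was outside that stretch, in an intron of Golm1, which encodes a Golgi membrane protein, at chr13:59655360-59658376. It had 21.9, 25.7 and 22.3 CPM in B6 and 0.728 and 0.847 CPM in B6-13D2, a log2 fold change of -4.88 (SE 0.27, edgeR adjusted p = 8.69e-23). The next loss by p, at chr13:66834812-66835419, had 4.33, 4.94 and 4.99 CPM in B6 and no count in either B6-13D2 library. Taking 3 counts per library as the floor, this is at least 33.2-fold lower. A region at chr13:66752393-66753581 had 5.32, 5.24 and 5.38 CPM in B6 and 0 and 0.0997 CPM in B6-13D2, at least 37.2-fold lower on the same floor. The other 3 leading losses, at chr13:66599154-66602476, chr13:69881661-69883616 and chr13:66555904-66557156, had log2 fold changes of -3.58, -3.93 and -2.42. Gains and losses were interleaved over short distances here: the loss at chr13:66599154-66602476 and the gain at chr13:66588310-66590725 share Gm49532 as their nearest gene.

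Outside 60 to 70 Mb, the leading gains of chromosome 13 were 2 modest ones far from the window. An intronic region of Gm41031, at chr13:97819549-97821285, rose from 4.09, 4.45 and 3.90 CPM to 12.0 and 10.1 CPM (log2 fold change 1.42, SE 0.20). The promoter region of Map1b, a microtubule-associated protein of neurons, at chr13:99443266-99445467, rose from 7.55, 7.99 and 9.89 CPM to 18.6 and 20.03 CPM. The log2 fold change at Map1b came to 1.19 (SE 0.19, edgeR adjusted p = 3.07e-05), and the call was lost when a change of more than 1.5-fold was required (adjusted p = 0.105). Beside Golm1, the leading loss outside the window was an intergenic region at chr13:115504068-115504709, from 3.33, 3.17 and 3.85 CPM to 0.591 and 0.498 CPM. It holds the first and the fourth 24-mer.

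**Figure D2:**
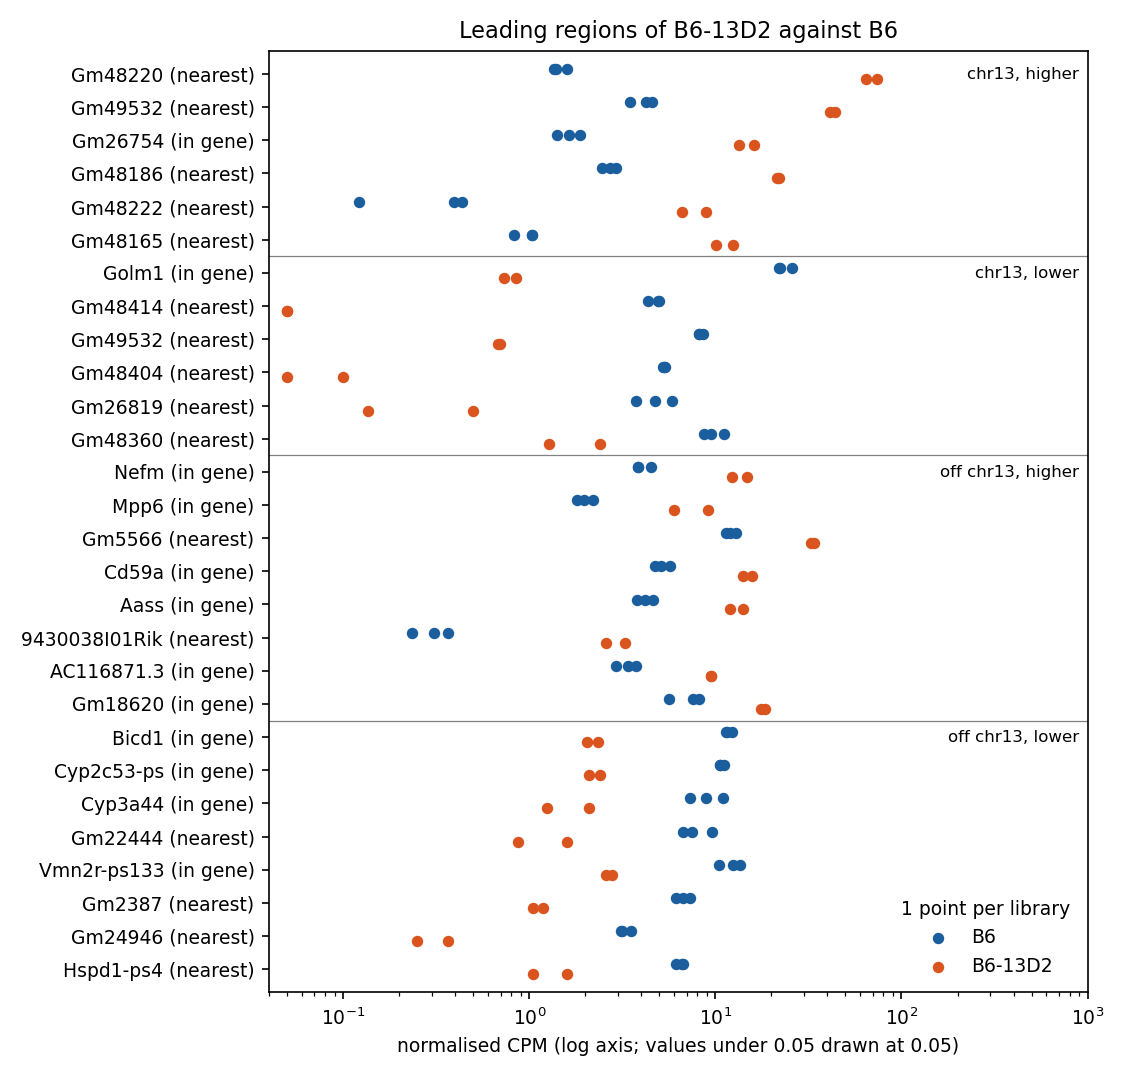
Normalised CPM (log axis) of the leading regions on and off chromosome 13, 1 point per library, with B6 in blue and B6-13D2 in orange, named by the gene they lie in or the nearest gene. The points of the 2 lines do not overlap in any of the regions shown, which was a condition for showing them. The changes on chromosome 13 are larger than most of those off it.

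Coding promoters were called more often on chromosome 13, at 8 of 998 regions (0.802%), than elsewhere, at 30 of 26643 (0.113%). Between 60 and 70 Mb, 80 of 104 protein-coding genes had a promoter region within 1000 bp of a start site, 121 regions in all, and 2 of these rose while 4 fell (4.96%, against 16.5% of all regions tested in the window). The zinc finger gene 2410141K09Rik had 1 in each direction. Its region at chr13:66440817-66441733 had 4.99, 6.71 and 5.52 CPM in B6 and 24.3 and 25.1 CPM in B6-13D2, and the one at chr13:66417897-66419548 had 4.52, 7.62 and 8.67 against 1.68 and 1.69 CPM. These are log2 fold changes of 2.12 (SE 0.20) and -2.02 (SE 0.27). The libraries of the 2 lines did not overlap at either start, as the rule for naming required. Gm10139 was the other gain, from 0.200, 0.122 and 0.0438 CPM to 1.00 and 0.847 CPM, which is a few counts in B6. Of 45 promoter regions of 28 genes with a zinc finger symbol, 1 differed: that of Zfp729b, at chr13:67608972-67610121, fell from 9.48, 9.33 and 8.84 CPM to 4.23 and 4.385 CPM (log2 fold change -1.10, SE 0.21). The median over these 45 was 0.12, against -0.01 over all 27641 coding promoter regions. Of the 45, 10 had an unadjusted edgeR p under 0.05, against 1066 of the 27641. Log2 fold changes over the 45 ran from -2.12 to 0.62. The 28 genes were taken by symbols starting with Zfp, so 2410141K09Rik is not among them. Both remaining losses belonged to Fancc, a gene of the Fanconi anaemia DNA repair pathway, with log2 fold changes of -1.02 and -0.93. Pde4d, a cAMP phosphodiesterase gene outside the window, had a loss of -0.99. The calls at Gm10139, Zfp729b, Fancc and Pde4d were lost when either B6-13D2 library was left out (edgeR adjusted p = 0.0975 to 0.474).

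Off chromosome 13 the lower regions were mostly repeats outside genes, and the higher regions were not. Bases that the GRCm38 sequence marks as repeats (soft-masked bases) made up a median of 82.0% of a region among the 725 lower regions, 28.3% among the 196 higher and 15.7% among all tested. Of the lower regions, 68.8% were intergenic and 4.41% lay at a start site, against 38.9% and 15.52% of all regions tested. They were also richer in GC, with a median of 54.4% against 48.2%, and their central 200 bp held a mean of 7.97 CpG sites against 3.84. The central 31 bases were repeated in the genome in 63.3% of them, against 17.9% of the higher regions and 10.5% of all. The core of the CTCF site was found in the central 200 bp of 0.828% of the lower regions and 6.01% of all, the KLF word GGGNGTGG in 4.55% and 11.9%, and the octamer ATGCNAAT in 1.10% and 4.23%. Among the higher regions the same words were found in 5.61%, 7.65% and 6.12%. These shares describe letters in a window and were not tested.

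Words shared by the lower regions were then counted. The 24-mer present in most lower regions off chromosome 13 was taken, its regions were set aside, and the step was repeated while at least 30 regions held the next word, which gave the 4 words printed above. Because the calls chose the words, their share among the called regions is a description. The first 24-mer was in 312 of the 725 lower regions (43.03%), the fourth in 190, the second in 107 and the third in 41. At least 1 of the 4 was in 487 lower regions, or 67.2%, and in none of the 196 higher regions. Of all 234967 regions tested off chromosome 13, 3404 hold one of the words, or 1.45%. The remaining 238 lower regions hold none, and 179 of these were under 80% soft-masked.

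In the genome these words are parts of repeats with the layout of LINE-1 elements. The first 24-mer has 5486 copies in GRCm38, in 4172 separate places, 948 of which hold several copies in tandem. The commonest distance between neighbouring copies was 201 bp, in 525 of 1314 cases. An open reading frame of at least 1000 codons followed within 8000 bp at 1036 of the places, against 7 on the opposite side, and the median length of these frames was 1281 codons. The second 24-mer has 1225 copies with a commonest spacing of 214 bp. The fourth has 6194, with a spacing of 208 bp in 2471 of 3411 cases, and frames with the same median of 1281 codons at 1266 places on 1 side and at 3 on the other. The third has 2355 copies and is not tandem (4 of 2351 places), with frames at 400 places against 3. Tandem units of this size ahead of a frame of this length are the known form of the mouse LINE-1 promoter and its last reading frame. No repeat annotation was used here, so the words are not assigned to LINE-1 families.

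The shift held for most regions with these words and not only for the called ones. Of the 1485 tested regions off chromosome 13 that hold the first 24-mer, 1370 (92.3%) had a negative log2 fold change, 312 (21.0%) were called lower and none higher. Their median log2 fold change was -0.95, with quartiles of -1.46 and -0.45. The median was -0.77 for the second word (662 regions), -0.43 for the third (525) and -0.77 for the fourth (1562). Other repeats shifted far less: among 12893 regions that were at least 80% soft-masked and held none of the words, the median was -0.07. Of these, 59 (0.458%) were lower and 10 (0.0776%) higher, so losses still outnumbered gains. Among the 218670 regions under 80% soft-masked without the words the median was -0.00, with 179 lower (0.0819%) and 186 higher (0.0851%). Since the calls that chose the words lie within the sets that hold them, the medians and the shares called are again a description.

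Chromosome 13 outside 60 to 70 Mb took no part in choosing the words. There, 147 tested regions hold at least 1 of them, and 23 were lower (15.6%) and none higher, against 0.402% lower and 0.112% higher among all 10703 regions. Their median log2 fold change was -0.73, close to the -0.75 of the 3404 regions with a word on the other chromosomes. These regions are not an independent check. The libraries are the same, and the words are exact copies of repeats found on other chromosomes. Whether reads from those copies were counted on chromosome 13 was not tested. These 23 regions are most of the 43 that fell outside the window on chromosome 13. The lower regions with the first 24-mer off chromosome 13 were spread over 19 chromosomes; the chromosome with most had 31.

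**Figure D3:**
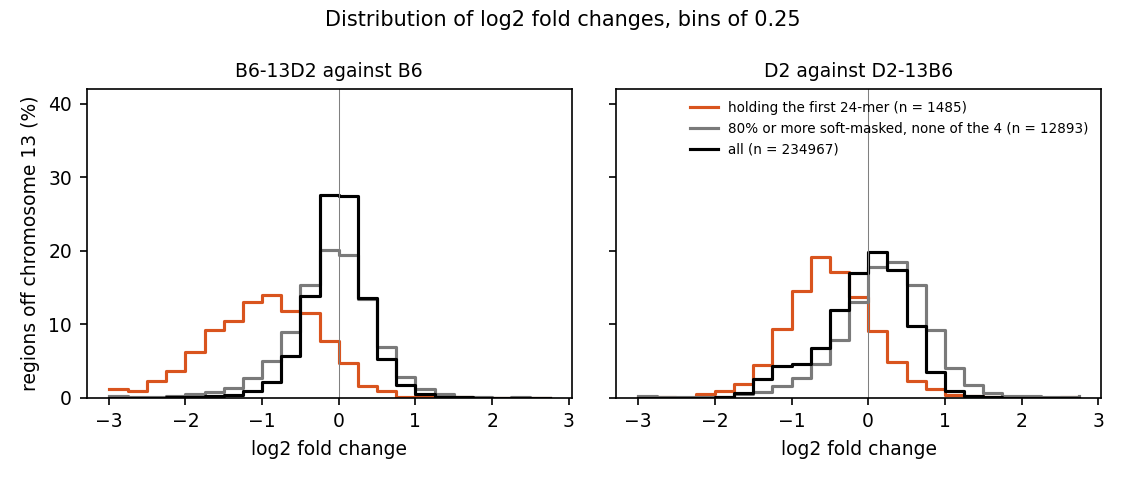
Distribution of log2 fold changes off chromosome 13 in bins of 0.25, as a percentage of the regions of each set, for regions holding the first 24-mer (orange), regions at least 80% soft-masked with none of the 4 words (grey) and all regions (black), in B6-13D2 against B6 (left) and D2 against D2-13B6 (right). The orange curve is shifted to negative values in both panels, with medians of -0.95 and -0.51, while the grey and black curves centre near or above 0.

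Summed over regions, the signal at the first 24-mer was lower in both B6-13D2 libraries than in any B6 library. The called regions that chose the words are within the sums for the words, so these sums are a description too. The 1485 regions together had 2400, 2586 and 2590 CPM in the B6 libraries and 1207 and 1160 CPM in the B6-13D2 libraries. The lines did not overlap, and the means were 2525 ± 108 (SD, n = 3) and 1183 ± 33.4 (SD, n = 2), a ratio of 0.469. The ratio was 0.516 for the fourth word, 0.589 for the second and 0.672 for the third. All regions with any of the words fell from 6017 ± 232 to 3356 ± 89.3 CPM, a ratio of 0.558. The other repeats had 17456 ± 700 CPM in B6 and 16973 ± 155 CPM in B6-13D2, a ratio of 0.972 that is within the spread of the B6 libraries.

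A technical difference moved in the same direction as part of this result. Across regions in the tenth with the lowest GC content, the B6-13D2 libraries lay a median of 0.14 and 0.10 log2 units above the B6 mean, and in the tenth with the highest GC content 0.09 and 0.07 units below it (shifts of -0.09 and -0.07). With offsets for GC content in each library, 393 lower regions with a word were still called, and the median log2 fold change at the first 24-mer was -0.86. How reads that map to several places were placed is not given in the sources used here, and its part in the level of any one copy was not tested.

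The reciprocal pair of lines shares no library with this comparison and carries a reciprocal exchange on the DBA/2J background, where D2 has the DBA/2J interval. The marker names of the 2 congenic strains differ, and the exchanged segments were not shown to be the same. Off chromosome 13, 15.3% of all regions were lower and 7.63% higher in D2 than in D2-13B6, so these lines differ far more widely. Regions with the first 24-mer had a median log2 fold change of -0.51 there, with 339 lower (22.8%) and 3 higher (0.202%), and those with the fourth -0.60, with 344 lower (22.0%) and 4 higher. The summed signal at the first 24-mer was 1701, 1838 and 1580 CPM in D2-13B6 and 1138, 1029 and 1240 CPM in D2. Thus the 2 lines with a DBA/2J interval were both below the line with the C57BL/6J interval on the same background, without overlap. The second and the third words differed: their medians were 0.04 and 0.33 on the DBA/2J background, with 29 and 73 regions higher against 18 and 5 lower. The other repeats, at least 80% soft-masked with none of the words, had a median of 0.26 there. Of these, 9.93% were higher and 2.79% lower. On chromosome 13 outside the window, the 65 regions with the first word had a median of -0.86 in B6-13D2 against B6 and -0.03 in D2 against D2-13B6. These 2 medians do not share a baseline. In D2 against D2-13B6 nearly all 1 Mb bins of chromosome 13 had a median above 0 over all their regions. It was 0.37 from 94 to 95 Mb, the bin with most regions, and -0.06 from 32 to 33 Mb. Off chromosome 13 the median of all regions was 0.03. No test of these differences between sets was made.

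**Figure D4:**
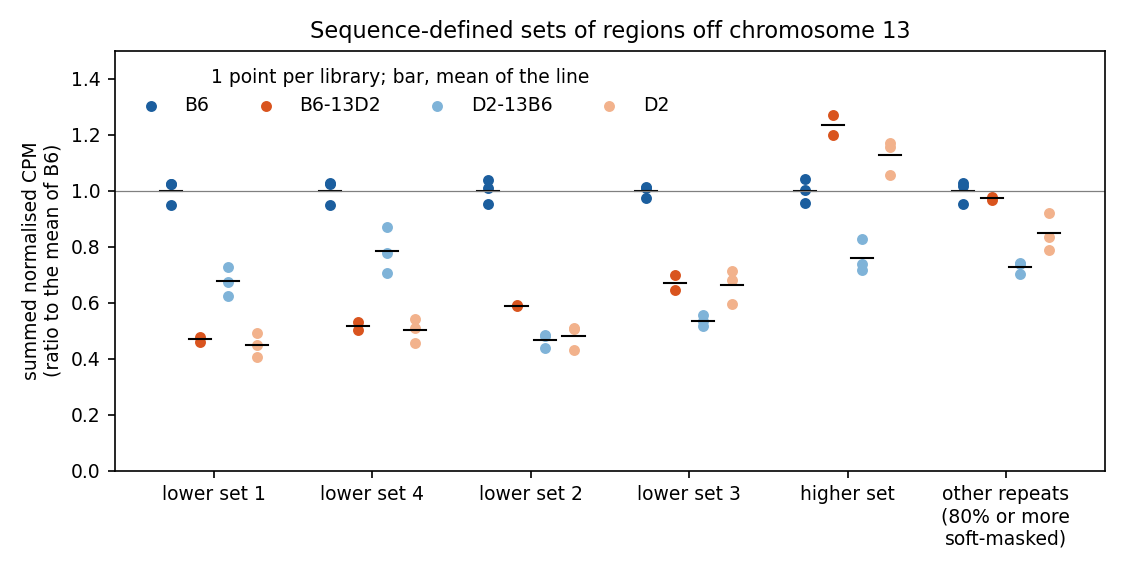
Summed normalised CPM of sets of regions off chromosome 13, as a ratio to the mean of the B6 libraries, 1 point per library, with a bar at the mean of each line; lower sets 1 to 4 hold the 4 words of the lower regions and the higher set holds the higher 24-mer. In the first and the fourth sets B6-13D2 lies below B6 and D2 below D2-13B6, in the second and the third only the first of these holds, and the other repeats show a ratio of 0.972 for B6-13D2. The other repeats lie higher in D2 than in D2-13B6. The words were chosen among regions called in B6-13D2 against B6, and the sets that hold them include these regions.

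Among the 8 most significant losses off chromosome 13, 7 hold the first 24-mer and 1 does not. The exception was an intronic region of Bicd1, an adaptor of the dynein motor, at chr6:149471110-149472212. It had 11.5, 11.4 and 12.3 CPM in B6 and 2.05 and 2.34 CPM in B6-13D2, so the lines were well apart (log2 fold change -2.42, SE 0.24, edgeR adjusted p = 5.96e-11). The region in Cyp2c53-ps shown above, at chr19:39248211-39249594, had 10.6, 10.6 and 11.1 CPM against 2.41 and 2.09 CPM (log2 fold change -2.25, SE 0.23). The region at Cyp3a44, a cytochrome P450 gene, at chr5:145779716-145780847, fell by 2.42 on the log2 scale. That in Vmn2r-ps133, a vomeronasal receptor pseudogene, at chr17:23244812-23245986, had 10.5, 13.5 and 12.4 CPM against 2.59 and 2.79 CPM. The 4 others were intergenic, at chr7:53136215-53137260, chr15:52124906-52125879, chr3:63529510-63530251 and chr4:106176708-106177690, with log2 fold changes of -2.69, -2.58, -3.38 and -2.28.

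Gains off chromosome 13 were fewer and smaller, with a median log2 fold change of 1.08 among the 196 regions, and 14 of them were at least 4-fold. The leading gain overlapped a coding exon of Nefm, a neurofilament gene, at chr14:68115756-68117659, with 3.83, 4.51 and 3.85 CPM in B6 and 12.2 and 14.7 CPM in B6-13D2. The region within Mpp6 and Gsdme, the latter encoding a pore-forming gasdermin, at chr6:50196337-50197829, rose from 1.80, 2.20 and 1.97 to 5.96 and 9.07 CPM. The one at Aass, a lysine degradation gene, at chr6:23088821-23091426, rose from 4.59, 3.78 and 4.20 to 12.0 and 14.1 CPM. An intergenic region of 6238 bp near Gm5566, at chr5:149651230-149657467, had 12.8, 12.0 and 11.4 against 33.7 and 32.6 CPM. The promoter region of Cd59a, a membrane-bound inhibitor of complement, at chr2:104095511-104097708, had 5.12, 5.67 and 4.73 CPM against 15.7 and 14.2 CPM. Their log2 fold changes were 1.74, 1.93, 1.63, 1.46 and 1.54. The lines did not overlap at any of them, as the rule for naming required. The largest fold among the leading gains was at chr7:137415931-137416282, from 0.233, 0.366 and 0.306 CPM to 3.28 and 2.59 CPM, in a region wholly within a repeat whose central 31 bases have 1042 copies. In all, the central 31 bases were repeated at 5 of the 8 leading gains, including those at Nefm (146 copies), Aass (15) and Gsdme (7).

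The leading gains also shared sequence. The higher 24-mer was in 16 of the 196 higher regions and in none of the 725 lower ones, and 3 of the 8 leading gains hold it: those at Nefm, at AC116871.3 (chr19:38386421-38388723, log2 fold change 1.49) and at Gm18620 (chr12:88339654-88342221, 1.33). Because the calls chose this word too, its share among the called regions is a description. So are the median and the sums in B6-13D2 and B6 below, since the called regions are among those that hold it. The higher 24-mer has 299 copies in the genome, none in tandem. Of all 234967 regions tested off chromosome 13, 176 hold it, and the 16 called regions are among them. These 176 regions had a median log2 fold change of 0.24, with quartiles of -0.07 and 0.48. Their summed signal was 932, 978 and 1018 CPM in B6 and 1170 and 1241 CPM in B6-13D2, without overlap and with a ratio of 1.24. On the DBA/2J background the same regions had a median of 0.66 in D2 against D2-13B6, with 91 of 176 higher (51.7%, against 7.63% of all regions) and 2 lower. There the sums were 720, 806 and 699 CPM in D2-13B6 and 1130, 1032 and 1142 CPM in D2.

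Few coding promoters changed off chromosome 13: 30 of 26643 regions (0.113%), 16 higher and 14 lower. Beside Cd59a, the leading gains were those of Gpsm1 (a modulator of G protein signalling), Lhx9 (a LIM homeobox factor), Cdk5rap1 (a tRNA-modifying enzyme of mitochondria), Ugdh (UDP-glucose dehydrogenase) and Xlr3a, an X-linked gene of a duplicated family. Their log2 fold changes were 1.37, 1.01, 1.32, 0.89 and 1.24, and each of these 5 calls was lost without B6-13D2 replicate 2 (edgeR adjusted p = 0.0729 to 0.853). The leading losses were at Gm37596 (-1.91), at the neighbouring interferon-inducible genes Ifi27 (-1.71) and Ifi27l2a (-1.85), at Gm8113 (-1.402), and at Kif11 and Btaf1. The calls at Ifi27l2a, Gm8113, Kif11 and Btaf1 were lost without B6-13D2 replicate 1 (edgeR adjusted p = 0.0801 to 0.304). The promoter region of Ifi27, at chr12:103433907-103434511, had 4.66, 4.82 and 5.95 CPM in B6 and 1.501 and 1.64 CPM in B6-13D2, and that of Ifi27l2a, at chr12:103443527-103443868, had 2.03, 1.77 and 2.63 against 0.455 and 0.747 CPM.

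Kif11, a mitotic kinesin gene, and Btaf1, which encodes a remover of TATA-binding protein from DNA, stood in 2 runs of neighbouring regions on chromosome 19 that were lower as a block. The runs were delimited after the values were seen, as consecutive regions with a log2 fold change under -0.4. The promoter region of Kif11, at chr19:37374819-37376892, had 25.4, 24.4 and 26.0 CPM in B6 and 11.1 and 13.1 CPM in B6-13D2. From Ide, the insulin-degrading enzyme gene, to Kif11 (chr19:37238536-37376892), 25 regions were tested, all negative by that choice, with a median log2 fold change of -1.03, and 11 of them were called lower. The 10 regions on either side had medians of -0.04 and 0.03. Summed over the 25 regions, the signal was 158.2, 166.6 and 156.2 CPM in B6 and 76.1 and 78.8 CPM in B6-13D2, and it was 73.3 to 84.7 CPM in D2 and 78.4 to 91.6 CPM in D2-13B6. In this run B6 therefore stood apart from all 3 other lines. In the run with Fgfbp3 and Btaf1 (chr19:36918169-36956133), the 10 regions, negative by the same choice, had a median of -0.86 and 2 were called. The 10 regions before it had a median of -0.01, and the 10 after it a median of -0.20 with 1 called lower. Its summed signal was 75.2, 68.5 and 75.8 CPM in B6, 39.2 and 41.95 CPM in B6-13D2, 52.7 to 54.6 CPM in D2 and 53.5 to 76.6 CPM in D2-13B6, so here the range of D2-13B6 overlapped that of B6. A segment of chromosome 19 with Fgfbp3 and Ide is known to vary in copy number among C57BL/6J mice. Copy number was not measured here, and copy number and accessibility cannot be told apart in these runs.

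**Figure D5:**
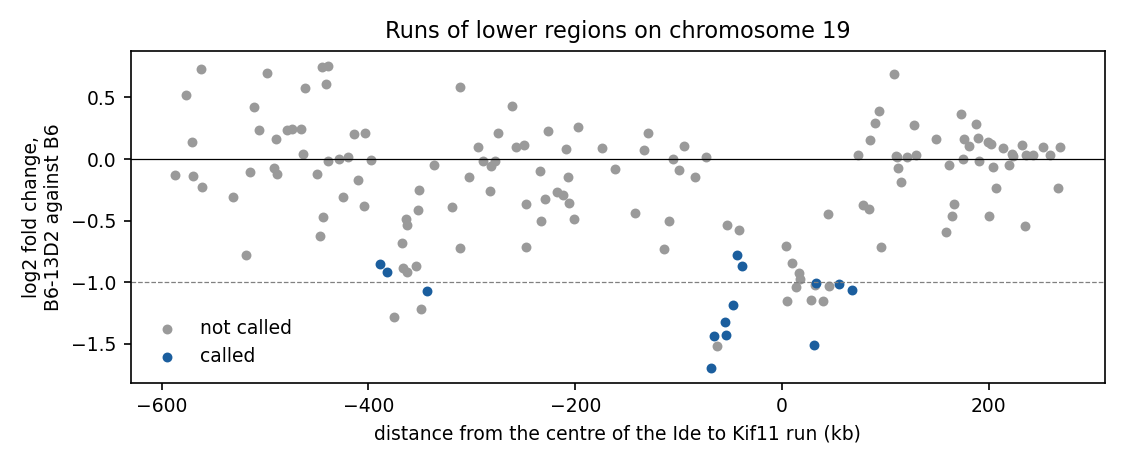
Log2 fold change of B6-13D2 against B6 for each tested region around the 2 runs on chromosome 19, against the distance in kb from the centre of the run from Ide to Kif11, with called regions in blue. The 25 regions of that run lie around -1 (dashed line; median -1.03), and the 10 regions on either side of it have medians of -0.04 and 0.03.

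No promoter region was called among the genes that act with KRAB zinc finger proteins or the markers of cell state. Since 0.137% of all coding promoter regions were called, a count of 0 in lists of this size is no result about their genes. None of 49 promoter regions of 19 corepressor and H3K9 methylation genes was called by edgeR, 2 had an unadjusted p under 0.05, and the median log2 fold change was 0.10. Their summed signal was 665.2 to 716.1 CPM in the B6 libraries and 719.3 to 731.6 CPM in the B6-13D2 libraries, slightly higher without overlap. That of Trim28 had 68.2, 70.8 and 73.5 CPM in B6 and 66.6 and 78.4 CPM in B6-13D2. For Setdb1 the values were 6.72, 5.61 and 7.485 against 7.23 and 7.27 CPM. Of the 29 promoter regions of the 18 stem cell genes none was called and 1 had an unadjusted p under 0.05, and Pou5f1, Nanog and Sox2 had log2 fold changes of -0.07, 0.10 and 0.02. Markers of feeder fibroblasts summed to 105.9 to 112.6 CPM in B6 and 92.1 to 102.7 CPM in B6-13D2 over 15 regions, without overlap, with none called and none at an unadjusted p under 0.05. None was called among primitive endoderm (7 regions, 1 at an unadjusted p under 0.05), trophoblast (11, none), mesoderm (4, none), neural (8, 2), 2-cell-like (5, none), formative and primed (20, none), germline (21, 1) and imprinted genes (36, 2). Their medians were -0.10, -0.09, -0.05, 0.07, -0.15, -0.02, -0.14 and 0.13. The summed signal of the imprinted genes was 347.7 to 363.1 CPM in B6 and 390.5 to 396.4 CPM in B6-13D2. That of the trophoblast genes was 161.4 to 168.7 and 150.6 to 159.8 CPM, in both cases without overlap. The lines also did not overlap at 26.1% of all single regions tested, and the sums of the lists were not tested. Zinc finger genes off chromosome 13 had 596 promoter regions for 404 of 428 genes, with none called, 18 at an unadjusted p under 0.05 and a median of 0.02. Over all 27641 coding promoter regions 1066 had an unadjusted p under 0.05, 38 were called (0.137%), and DESeq2 called fewer regions overall (987). The values are accessibility and not RNA, and a p above the threshold does not show that a promoter was the same in both lines.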

How the data were processed

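Per the labels' protocols, ATAC-seq libraries were made from 100000 cells each (FAST-ATAC) and sequenced with 150 bp reads. The authors deposited 1 table of raw counts, in whole numbers, with a row per region. The submitters' processing notes name Trimmomatic 0.39, BWA 0.7.5, Picard 2.0.1, MACS 1.4.2, bedtools 2.9.2, edgeR 3.34.1 and the mm10 build (GRCm38), with no roles or order. The Tn5 shift, the placing of multiply mapped reads, and whether reads or fragments were counted are not given in the sources used here.

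Here edgeR 4.0.16 (R 4.3.3, limma 3.58.1) was fitted to all 11 libraries, 1 coefficient per line, with TMM, filterByExpr, a trended dispersion and a robust quasi-likelihood test. P-values were adjusted by Benjamini-Hochberg over all regions tested, and regions under 0.05 are called. The method was tested on simulated data. CPM used TMM-scaled totals. Annotation was GENCODE M21, and sequence came from GRCm38. Coordinates are as the table lists them. Members, lists, words and the 60 to 70 Mb window were chosen with earlier results of these data known. Named regions were called, without overlap between the lines: by smallest p, 6 each way on chromosome 13, 2 each way outside the window, 8 each way elsewhere, and up to 5 (chromosome 13) and 6 (elsewhere) coding promoters each way. The corepressor list held Trim28, Setdb1, Atf7ip, Cbx1, Cbx3, Cbx5, Suv39h1, Suv39h2, Ehmt1, Ehmt2, Morc3, Tasor, Mphosph8, Pphln1, Resf1, Dnmt1, Uhrf1, Atrx, Daxx and Smarcad1. The stem cell list held Pou5f1, Nanog, Sox2, Klf2, Klf4, Klf5, Esrrb, Tfcp2l1, Tbx3, Prdm14, Zfp42, Dppa3, Dppa5a, Nr0b1, Tcl1, Tdh, Fgf4 and Utf1. The feeder list held Col1a1, Col1a2, Col3a1, Thy1, Twist1, Twist2, Prrx1, Postn, Pdgfrb and Fbln2. The other lists of marker genes held 4 to 20 genes each, and the zinc finger lists were taken by gene symbol. The greedy choice of 24-mers for the higher regions also gave a CA repeat, in 19 higher and 13 lower regions of 10505 tested, which is not discussed. Counting error limits regions of few counts, and reads from PCR are not independent molecules. Alternatives were DESeq2 1.42.0, other scalings, offsets and filters, a minimum fold of 1.5, the 5 libraries alone, a replicate block, and leaving out each library.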

Additional observations from a re-analysis of the deposited data

Results flagged for a closer look

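For each region named above, the difference between the lines of the C57BL/6J background (B6-13D2 against B6) was set against that between the lines of the DBA/2J background (D2 against D2-13B6) by an interaction term in the same edgeR fit. The term is the first log2 fold change minus the second. Of the 49 named regions that were called, 29 had an adjusted p under 0.05 for it. The share over all tested regions is not given here, so this count has no background to be set against. These 49 regions were chosen by their p on the C57BL/6J background, which favours larger effects there. The promoter region of Pou5f1, named without being called, had a term of -0.79 (edgeR adjusted p = 0.0419).

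On chromosome 13 the difference was -1.35 at the promoter region of Gm26754 and -1.16 near Gm48186, 2 gains that were larger on the DBA/2J background. It was -2.63 in the intron of Golm1, where the log2 fold change was -4.88 and -2.25. At the losses it was -6.41 at chr13:66834812-66835419, a fitted value that rests on 0 counts, -1.48 at chr13:66599154-66602476, -3.12 at chr13:66752393-66753581, -2.62 at chr13:69881661-69883616 and -2.11 at chr13:115504068-115504709. At the promoter regions of 2410141K09Rik it was -1.39 at chr13:66440817-66441733 and -1.48 at chr13:66417897-66419548. It was -1.34 at Fancc (chr13:63352168-63354192) and -1.54 at Pde4d, 2 promoters with a log2 fold change of 0.32 and 0.56 on the DBA/2J background. In D2 against D2-13B6 the median of all regions was above 0 in nearly all 1 Mb bins of chromosome 13. Where it is above 0, it lowers the term for gains and losses alike. That median was -0.03 in the bin with Fancc and 0.34 in the bin with Pde4d.

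Off chromosome 13 the gains that differed were Cd59a (0.89), the repeat at chr7:137415931-137416282 (5.12, with log2 fold changes of 3.31 and -1.81), Gpsm1 (1.09), Lhx9 (1.08), Cdk5rap1 (1.82) and Xlr3a (1.74). The losses that differed were Bicd1 (-1.14), Cyp2c53-ps (-1.23), Gm37596 (-1.49), Ifi27 (-1.001), Ifi27l2a (-1.48) and Kif11 (-0.83). The remaining 5 hold the first 24-mer: chr7:53136215-53137260 (-2.42), chr17:23244812-23245986 (-2.12), chr15:52124906-52125879 (-3.11), chr3:63529510-63530251 (-2.69) and chr4:106176708-106177690 (-1.31). At the chr15 and chr17 regions the D2 and D2-13B6 libraries had little signal, with means of 0.217 ± 0.072 and 0.144 ± 0.065 CPM (SD, n = 3) and of 0.527 ± 0.16 and 0.528 ± 0.28 CPM.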

How the results depend on the processing

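With a required change of more than 1.5-fold, the calls on chromosome 13 went from 248 to 145 (96 higher, 49 lower), those off it from 921 to 225 (23 higher, 202 lower), and the lower regions with a word from 487 to 171. With the 5 libraries alone, 2517 regions were called off chromosome 13 (994 higher, 1523 lower), and 156 were lower on it. Leaving out 1 library gave 144 to 213 calls on chromosome 13 (104 to 133 higher, 39 to 87 lower), 126 to 181 between 60 and 70 Mb, 316 to 694 off it (53 to 129 higher, 259 to 573 lower) and 190 to 396 lower regions with a word. Off chromosome 13, it was leaving out B6 replicate 3 (596) or either B6-13D2 replicate (338 and 316) that moved the count by over 1.5 times. DESeq2, other size factors, offsets for abundance or GC content and other filters on low counts kept each of these counts within 1.5 times, and no named region changed direction. The median log2 fold change at the first 24-mer ran from -0.86 to -1.06 over all settings. Of the 49 named regions called, 34 were called at every setting.

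The labels give replicate numbers 1 and 2 to both lines, but nothing says that they mark a shared batch. Deviations of same-numbered libraries had correlations across regions of 0.0352 and 0.0329. With 2 libraries in B6-13D2 their deviations mirror each other, so these values cannot show whether the numbers mark a batch. Since no shared batch is stated, the libraries were not treated as pairs. With a replicate block, 254 regions were called on chromosome 13 and 967 off it, 1221 in all, of which 1056 were also called without the block. With 2 libraries in B6-13D2 the spread rests on all 4 lines, and the precision is lowest in regions of few counts.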
